A study of Mus musculus with 10 samples.

Results

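Genes that serve to write, copy, read and remove DNA methylation were followed across mouse CD4+ T cells. The cells differed in Treg starting state and in the virus they received. The set holds 8 genes, namely Dnmt3a, Dnmt3b, Dnmt1, Uhrf1, Tet1, Tet2, Tet3 and Mbd2. They were taken as every probe set annotated to the symbol of a member alone, which gave 21 of the 45101 probe sets on the array, or 8 of 18193 singly annotated genes. Of the 21, 18 exceeded the median of the array on 2 or more arrays and were tested. The 3 that did not were all Tet1 probe sets.

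DNA methylation is laid down at cytosines followed by guanine (CG) by the de novo methyltransferases Dnmt3a and Dnmt3b. After replication, Uhrf1 recognises DNA methylated on the old strand alone and brings in Dnmt1, which copies the mark to the new strand. The Tet dioxygenases oxidise methylcytosine, which starts its removal, and Mbd2 binds methylated CG and recruits co-repressors. In mouse regulatory T cells (Treg) an intron enhancer of Foxp3 and regions in several other Treg genes lack methylation that conventional T cells carry. The arrays measured the transcripts of these genes, not methylation itself.

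All cells were CD4+ splenocytes, stimulated through CD3 and CD28, infected with a retrovirus carrying an NGFR marker and sorted as NGFR+. Scurfy Foxp3 cells were GFP+ cells from DEREG/Scurfy mice given the Foxp3 virus, titled epigenetics(+). Scurfy mock cells were the same GFP+ start with the mock virus, titled Foxp3(-)epigenetics(+). Treg mock cells were GFP+ cells from DEREG mice with empty virus, titled Foxp3(+)epigenetics(+). Tconv Foxp3 cells were GFP- cells from DEREG mice with the Foxp3 virus, titled epigenetics(-), and Tconv mock cells were GFP- DEREG cells with empty virus, titled Foxp3(-)epigenetics(-). DEREG mice carry a transgene of GFP fused to a diphtheria toxin receptor under the Foxp3 promoter, and scurfy mice carry a mutated Foxp3 gene. The descriptions write D_S for the 4 scurfy arrays, read here as DEREG/Scurfy, while the strain field gives DEREG on Balb/c for every array. Each of the 5 groups had 2 arrays, ages were not given, and nothing in the labels says that the 2 arrays came from separate animals or cultures. Scurfy and DEREG cells thus differ in Foxp3 genotype beside the virus, and a p-value here reflects spread between arrays alone, which may be technical.

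Each value below is either the deposited intensity of a probe set, on a linear scale, or a difference of group means of log2(intensity + 16) with its standard error (SE), from n = 2 arrays per group. Differences were tested with limma across all 26094 probe sets that met this filter, and a difference was called when its Benjamini-Hochberg adjusted p over those probe sets was under 0.05. Array medians ran from 18.8 to 36.3 and 75th percentiles from 123 to 191. The median of all tested probe sets was 0.26 in Treg mock, 0.24 in scurfy mock and 0.26 in Tconv Foxp3, each against Tconv mock, and -0.01, -0.01 and 0.02 after quantile normalization, so a difference from Tconv mock is best read against those shifts. Foxp3 itself read 948 and 691 on the scurfy Foxp3 arrays, 1188 and 1114 on the scurfy mock arrays, 2130 and 3128 in Treg mock, 18.0 and 18.9 in Tconv Foxp3, and 53.9 and 35.9 in Tconv mock. Its probe set was thus not higher on the arrays labelled Foxp3, and the vector is named below only as the label gives it. Of 6 T cell markers, 5 had a probe set, and all 5 were above the median on every array. Of 7 myeloid markers, 5 were below the median on every array and 0 were above it on every array. Of 7 measured B cell markers, 0 were below it on every array and 0 were above it on every array. Scurfy Foxp3 array 2 stood apart in several members and in some proliferation genes (values below), and its description has a suffix that the other descriptions lack. Several differences below are therefore given without it as well.

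Dnmt3a was the only member called between GFP+ and GFP- groups. Its 5 probe sets were lower in the 3 GFP+ groups than in the 2 GFP- groups, by 2.33-fold to 2.96-fold, and all 5 passed the test. Of the 3 GFP+ groups, 2 came from scurfy mice, so start and Foxp3 genotype are mixed in this contrast. Between Treg mock and Tconv mock, which came from the same mouse line, 0 of the 5 were called. Dnmt3a is the main de novo methyltransferase of T cells, and in mouse helper T cells it methylates cytokine genes such as Ifng. The other 13 tested probe sets of the set did not pass the GFP+ against GFP- test.

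The strongest of the 5 by p, 1460324_at, had an intensity of 149 and 127 on the scurfy Foxp3 arrays, 38.6 and 62.2 on the scurfy mock arrays, and 172 and 218 in Treg mock, against 417 and 451 in Tconv Foxp3 and 317 and 257 in Tconv mock. The brightest, 1423064_at, had 716 and 561 on the scurfy Foxp3 arrays, 484 and 504 on the scurfy mock arrays, and 929 and 933 in Treg mock, against 1714 and 1821 in Tconv Foxp3 and 1563 and 1262 in Tconv mock. Every GFP+ array was below every GFP- array in both. The same separation held in 1423063_at, where GFP+ arrays read 374 and 321 (scurfy Foxp3), 141 and 207 (scurfy mock) and 415 and 437 (Treg mock) against 940 and 900 (Tconv Foxp3) and 586 and 508 (Tconv mock). In 1423065_at the values were 434 and 174 on the scurfy Foxp3 arrays, 275 and 247 on the scurfy mock arrays and 561 and 579 in Treg mock, against 1344 and 1273 in Tconv Foxp3 and 836 and 866 in Tconv mock. In 1423066_at they were 382 and 199 on the scurfy Foxp3 arrays, 231 and 233 on the scurfy mock arrays and 474 and 425 in Treg mock, against 823 and 996 in Tconv Foxp3 and 852 and 599 in Tconv mock. So the 6 GFP+ and 4 GFP- arrays did not overlap in any of the 5, whereas 2.06% of all tested probe sets were lower without overlap. Across the 10 arrays the 5 probe sets followed each other with Pearson's r of 0.87 to 0.99 after quantile normalization, over 10 pairs that share target gene and libraries.

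**Figure D1:**
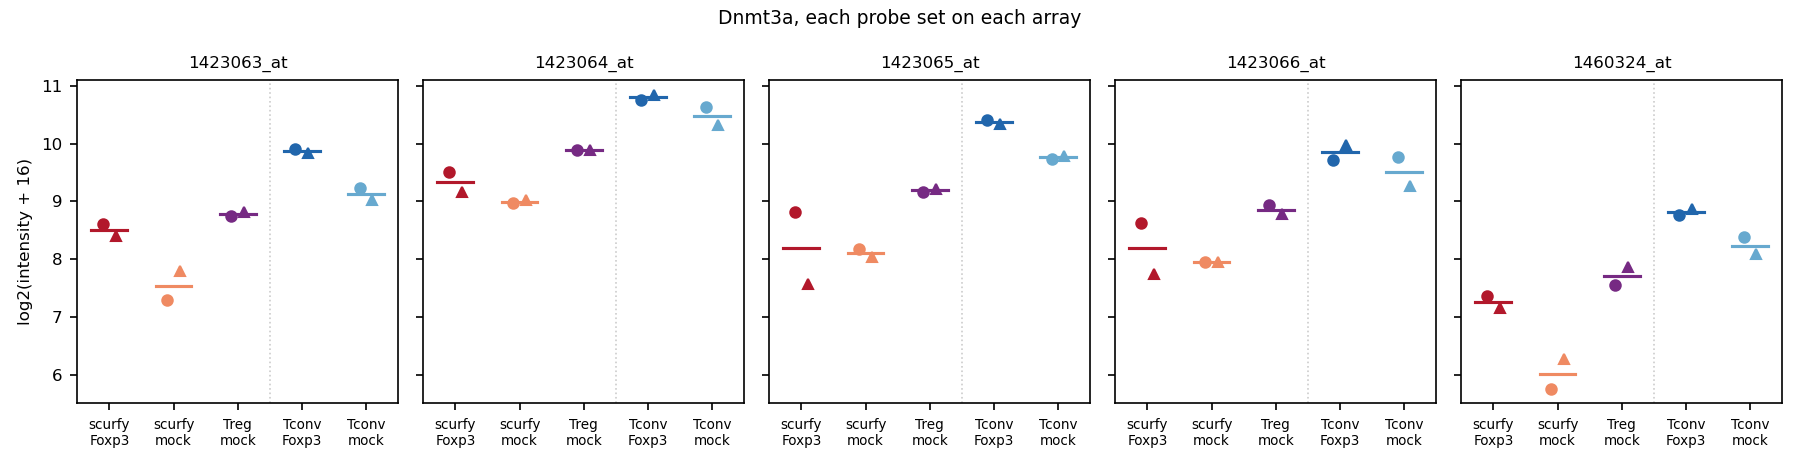
Intensity of the 5 Dnmt3a probe sets as log2(intensity + 16) on the vertical axis, by group on the horizontal axis, with a circle for array 1, a triangle for array 2 and a line at the group mean of 2 arrays. In every panel the 6 points left of the dotted line, from GFP+ starts, lie below the 4 points to its right, from GFP- starts.

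Set as the mean of the 3 GFP+ groups minus the mean of the 2 GFP- groups, the log2 difference was -1.52 for 1460324_at (SE 0.19, limma adjusted p = 0.0044), -1.23 for 1423064_at (SE 0.18, adjusted p = 0.0081) and -1.22 for 1423063_at (SE 0.18, adjusted p = 0.0099). It was -1.57 for 1423065_at (SE 0.24, adjusted p = 0.012) and -1.34 for 1423066_at (SE 0.22, adjusted p = 0.015). These 5 were 5 of 18 member probe sets called, all lower, where 2.98% of all tested probe sets were called and 0.682% were called lower. They report 1 of the 8 member genes, so they are not 5 separate results. By p they ranked between 87 and 258 of 26094. The call of 1460324_at was kept in all 18 alternative fits in which it was tested. The other 4 lost theirs without Tconv Foxp3 array 1 (-1.21 for 1423063_at, -1.25 for 1423064_at, -1.55 for 1423065_at and -1.41 for 1423066_at) and without Tconv Foxp3 array 2 (-1.24, -1.21, -1.59 and -1.28 in the same order). Without Tconv mock array 1 the call ended for 1423063_at (-1.17) and 1423066_at (-1.22), and without Tconv mock array 2 for 1423065_at (-1.55). Of the 6 GFP+ arrays 4 came from scurfy mice, so this contrast leans on cells with the scurfy mutation.

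**Figure D2:**
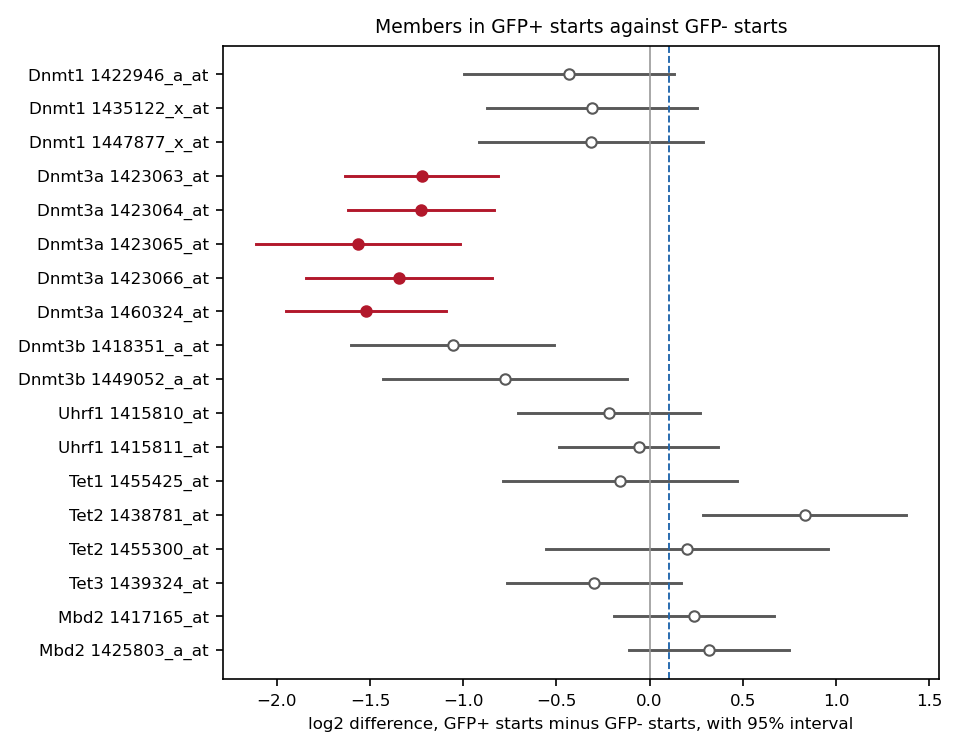
The log2 difference of the 3 GFP+ groups minus the 2 GFP- groups for each of the 18 tested probe sets, with its 95% interval. Filled red points passed the test, open points did not, and the dashed line marks the median of all tested probe sets at 0.11. The 5 Dnmt3a intervals all end at or below -0.81.

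Taken group by group, Dnmt3a was lowest in scurfy mock and highest in Tconv Foxp3 in all 5 probe sets, with Tconv mock, Treg mock and scurfy Foxp3 between them in falling order of group mean. The span from lowest to highest group was 3.50-fold in 1423064_at and 6.88-fold in 1460324_at. A moderated F test over the 5 groups called 4 of the 5, with an adjusted p of 0.011 for 1460324_at, 0.025 for 1423063_at, 0.035 for 1423064_at and 0.046 for 1423065_at, and 0.065 for 1423066_at, which was not called. The same test called 1.38% of all probe sets and 0 of the other 13 member probe sets. Leaving out Tconv Foxp3 array 1 or 2 left 0 members called by this test, and leaving out either scurfy mock array left 2 genes. Not all neighbours in that order were distinct. In 1423065_at and 1423066_at the scurfy Foxp3 arrays spanned the scurfy mock arrays, and in 1423066_at the Tconv Foxp3 and Tconv mock arrays overlapped.

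Between scurfy mock and Tconv mock, Dnmt3a was lower in 5 of 5 probe sets without overlap, by 2.79-fold to 4.61-fold, where 11.0% of all probe sets were lower without overlap. The test called 1460324_at (-2.21, SE 0.30, adjusted p = 0.017), where 0.326% of all probe sets were called and 0.0575% were called lower. The other 4 ranged from -1.65 to -1.48, with adjusted p from 0.061 to 0.14. After quantile normalization all 5 were called, from -2.47 to -1.68, as they were at a common 75th percentile. The call of 1460324_at ended without scurfy mock array 1 (-1.95), Tconv mock array 1 (-2.06) or Tconv mock array 2 (-2.35). A second probe set was called without either scurfy Foxp3 array (1423065_at, -1.65) or without scurfy mock array 2 (1423063_at, -1.84).

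Scurfy Foxp3 against Tconv Foxp3, which uses none of the mock arrays, gave differences of -2.18 for 1423065_at (SE 0.38, adjusted p = 0.030), -1.46 for 1423064_at (SE 0.27, adjusted p = 0.039) and -1.55 for 1460324_at (SE 0.30, adjusted p = 0.043). The remaining probe sets, 1423063_at (-1.37, adjusted p = 0.054) and 1423066_at (-1.66, adjusted p = 0.056), were just outside the threshold. All 5 were lower without overlap, as were 24.5% of all probe sets, and 1.15% of all probe sets were called, 0.295% lower. Without scurfy Foxp3 array 2 the differences were -1.28 for 1423064_at, -1.56 for 1423065_at and -1.44 for 1460324_at and none was called. Leaving out Tconv Foxp3 array 1 (-1.5, -2.14 and -1.6 in the same order), Tconv Foxp3 array 2 (-1.41, -2.22 and -1.5), or either Tconv mock array (-1.46, -2.18 and -1.55), which changes only the shared spread, also ended all calls. Without scurfy Foxp3 array 1 (-1.63 for 1423064_at and -1.66 for 1460324_at) or either Treg mock array (-1.46 and -1.55), the calls of those probe sets ended, and 1423066_at was called without scurfy Foxp3 array 1 (-2.10). Without either scurfy mock array 1423063_at was also called, at -1.37.

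Treg mock group means lay between those of scurfy and Tconv cells in all 5 probe sets. Between Treg mock and Tconv mock, which came from the same mouse line, Dnmt3a was lower in 5 of 5 probe sets without overlap, where 13.4% of all probe sets were lower without overlap. The size was 1.27-fold to 1.57-fold, and 0 were called. The log2 differences ran from -0.65 (1423066_at, 95% interval -1.43 to 0.12) to -0.35 (1423063_at, -0.98 to 0.29), with adjusted p from 0.31 to 0.58. After quantile normalization they ran from -0.84 to -0.56 and were not called either. In that comparison 1.08% of probe sets were called. Scurfy mock cells were in turn below Treg mock in 5 of 5 probe sets, by 1.86-fold to 3.21-fold and without overlap (17.3% of all probe sets), with 0 called and adjusted p from 0.071 (1460324_at, -1.68, SE 0.30) to 0.52, where 0.199% of all probe sets were called. At a common 75th percentile 1460324_at was called there (-1.64, adjusted p = 0.045).

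Arrays labelled Foxp3 had higher group means of Dnmt3a than their mock counterparts in both kinds of start, and none of these differences was called. Tconv Foxp3 stood above Tconv mock by 0.33 to 0.74, with 4 of 5 probe sets not overlapping, where 45.9% of all probe sets were higher without overlap, and adjusted p from 0.33 to 0.71. After quantile normalization the difference was 0.41 for 1423063_at, 0.31 for 1423065_at, 0.24 for 1460324_at, 0.04 for 1423064_at and 0.03 for 1423066_at. Scurfy Foxp3 stood above scurfy mock by 0.08 to 1.23, with 3 of 5 not overlapping, where 13.2% of all probe sets were higher without overlap. The largest were 1460324_at (1.23, SE 0.30, unadjusted p = 0.0021 from limma, adjusted p = 0.70) and 1423063_at (0.96, SE 0.28, adjusted p = 0.9995). Without scurfy Foxp3 array 1 the sign turned for 1423065_at (-0.54) and 1423066_at (-0.21), and without scurfy Foxp3 array 2 they stood at 0.70 and 0.68. The difference between the 2 vector effects ran from -0.53 (95% interval -1.73 to 0.67) to 0.65 (-0.29 to 1.6) over the 5 probe sets and was not called in any. In the scurfy vector comparison limma called 0 of 26094 probe sets, with 4.25% at an unadjusted p under 0.05, and in Tconv 0.0192% were called. For the difference between vector effects limma called 0 of 26094, with 7.92% at an unadjusted p under 0.05.

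**Figure D3:**
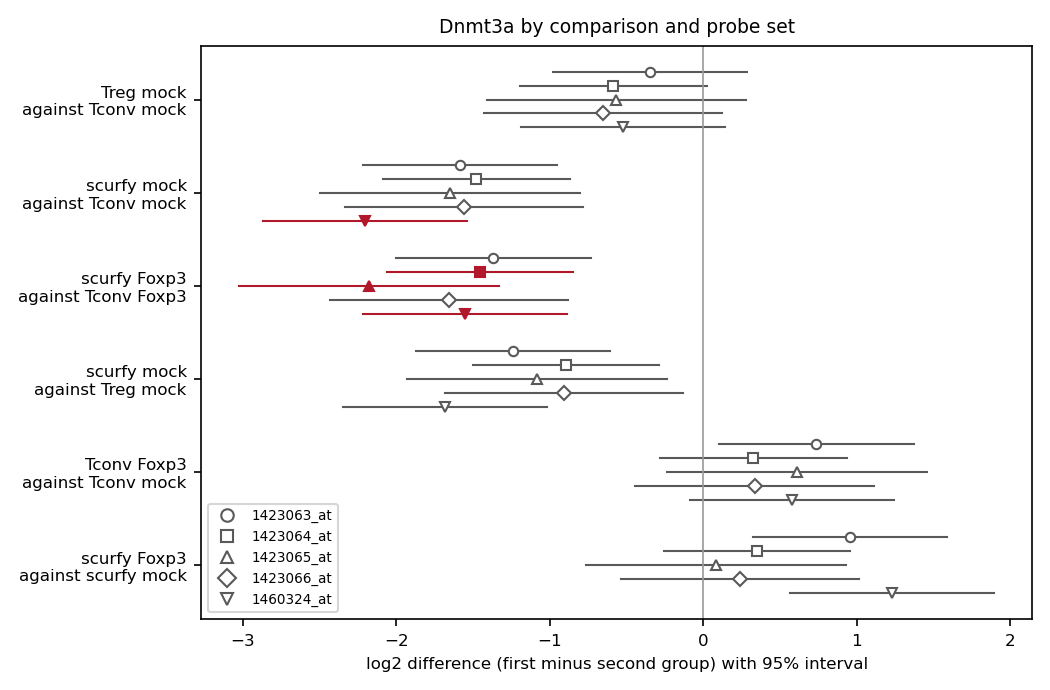
The log2 difference of Dnmt3a, first minus second group, for each of the 5 probe sets (marker shapes) in 6 comparisons, with 95% intervals. Filled red points passed the test. Points for scurfy against Tconv cells lie from -2.21 to -1.37, and those for Treg mock against Tconv mock from -0.65 to -0.35.

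Markers of other cells were set beside these values. The mean log2 level of the 7 measured B cell markers was 6.76 and 7.09 on the scurfy Foxp3 arrays, 4.47 and 5.92 on the scurfy mock arrays and 4.72 and 6.41 in Treg mock, against 5.71 and 6.08 in Tconv Foxp3 and 4.94 and 4.80 in Tconv mock. Scurfy mock array 1, which had the lowest B cell mean of the 10 arrays, also had the lowest 1460324_at, 1423063_at and 1423064_at values. The lowest 1423065_at and 1423066_at values were instead on scurfy Foxp3 array 2, which had the highest B cell mean. Cd79a, a B cell receptor subunit, Cd79b and Ms4a1 peaked on scurfy Foxp3 array 2, at 933, 500 and 170. Cd22, Pax5 and Blnk peaked on scurfy Foxp3 array 1, at 55.4, 58.1 and 57.3, and Ebf1 on Tconv mock array 1, at 149. Scurfy mock array 1 also had the highest mean of the 2 measured NK cell markers (5.91, where the 10 arrays ran from 4.07 to 5.91) and of the 2 measured red blood cell markers (5.03, in a range of 4.14 to 5.03). Eomes, which NK cells and some T cells express, read 203 there, while the NK receptor Ncr1 was below the median on every array, at 7.24 or less. Alas2, the heme synthesis enzyme of red cell precursors, read 46.4 there, while the globin gene Hba-a1 was below the median on every array, at 4.40 or less. Means ran from 5.15 to 6.13 for the 2 measured CD8 T cell markers. For the 3 measured mast cell and basophil markers they ran from 4.04 to 5.48, and both were highest on Treg mock array 2. Cd8b1 was above the median on all 10 arrays (33.3 to 72.6) and Cd8a on 3 (4.07 to 46.2). Kit read 168 on Treg mock array 2, while Cpa3 and Mcpt8 were below the median on every array. The part of these cells in the Dnmt3a result was not tested. In bulk RNA, fewer cells that express a gene and less RNA per cell cannot be told apart.

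Annotated starts of Dnmt3a differ in how many CG sites they hold, which is shown because the methyltransferases among the members act at CG. RefSeq windows of 250 bases before 3 Dnmt3a starts held 38, 40 and 15 CG dinucleotides, where the median of 32851 such windows was 6 and 1.88%, 1.31% and 27.3% of windows held at least as many. The first and the third are printed in 5′ to 3′ direction with CG in capitals, from chr12:3806730-3806979 and chr12:3891494-3891743 on the plus strand of GRCm38.p6. The files do not say which start each probe set reports, so no value above was assigned to a start.
Dnmt3a, upstream start: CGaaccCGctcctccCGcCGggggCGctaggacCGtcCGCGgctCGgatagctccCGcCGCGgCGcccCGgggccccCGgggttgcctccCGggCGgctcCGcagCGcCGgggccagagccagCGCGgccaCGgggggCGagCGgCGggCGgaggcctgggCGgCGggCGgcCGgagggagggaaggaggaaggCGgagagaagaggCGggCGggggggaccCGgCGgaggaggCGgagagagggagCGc
Dnmt3a, downstream start: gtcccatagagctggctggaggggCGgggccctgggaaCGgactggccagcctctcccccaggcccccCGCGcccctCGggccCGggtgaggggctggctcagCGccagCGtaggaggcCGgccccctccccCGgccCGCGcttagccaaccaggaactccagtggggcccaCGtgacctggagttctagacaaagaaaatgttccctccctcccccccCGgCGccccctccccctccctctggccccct

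Dnmt3b, the other de novo methyltransferase, was dim, and its values set Tconv Foxp3 above the other groups. Probe set 1449052_a_at read 39.7 and 30.8 on the scurfy Foxp3 arrays, 50.9 and 7.75 on the scurfy mock arrays, 69.5 and 93.1 in Treg mock, 139 and 197 in Tconv Foxp3, and 31.6 and 46.8 in Tconv mock. Probe set 1418351_a_at read 27.2 and 25.5 on the scurfy Foxp3 arrays, 19.2 and 19.4 on the scurfy mock arrays, 25.7 and 51.4 in Treg mock, 74.3 and 131 in Tconv Foxp3, and 37.1 and 74.4 in Tconv mock. In 1449052_a_at both Tconv Foxp3 arrays lay above the other 8, while in 1418351_a_at a Tconv mock array lay between them. These probe sets were above the array median on 9 and 7 of 10 arrays, so the low groups are near the background of the array.

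No Dnmt3b difference was called with the settings above. Tconv Foxp3 was above Tconv mock by 1.73 in 1449052_a_at (SE 0.45, limma adjusted p = 0.20) and by 0.73 in 1418351_a_at. For scurfy Foxp3 against Tconv Foxp3 the difference was -1.83 in 1449052_a_at (SE 0.45, adjusted p = 0.098) and -1.44 in 1418351_a_at (SE 0.38, adjusted p = 0.11), and the first was called without either scurfy mock array (-1.83). Over all GFP+ against GFP- groups the differences were -1.06 for 1418351_a_at (SE 0.24, adjusted p = 0.052, with overlap) and -0.78 for 1449052_a_at (SE 0.29, adjusted p = 0.19). The first of these was called after quantile normalization (-1.23) and at a common 75th percentile (-1.17), and the second without scurfy mock array 1 (-1.03), while without scurfy mock array 2 the second was -0.53. At these dim signals the pseudocount set much of the size. With 64 in place of 16 the GFP+ against GFP- difference of 1418351_a_at was -0.61 and that of 1449052_a_at -0.49, and for scurfy Foxp3 against Tconv Foxp3 they were -0.86 and -1.21. Between Treg mock and Tconv mock the probe sets had opposite signs, at 0.82 for 1449052_a_at and -0.39 for 1418351_a_at. With the Dnmt3a probe sets, 1418351_a_at had an r of 0.81 to 0.83 and 1449052_a_at of 0.66 to 0.74 over 10 arrays after quantile normalization, as a description across arrays that share their libraries.

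**Figure D4:**
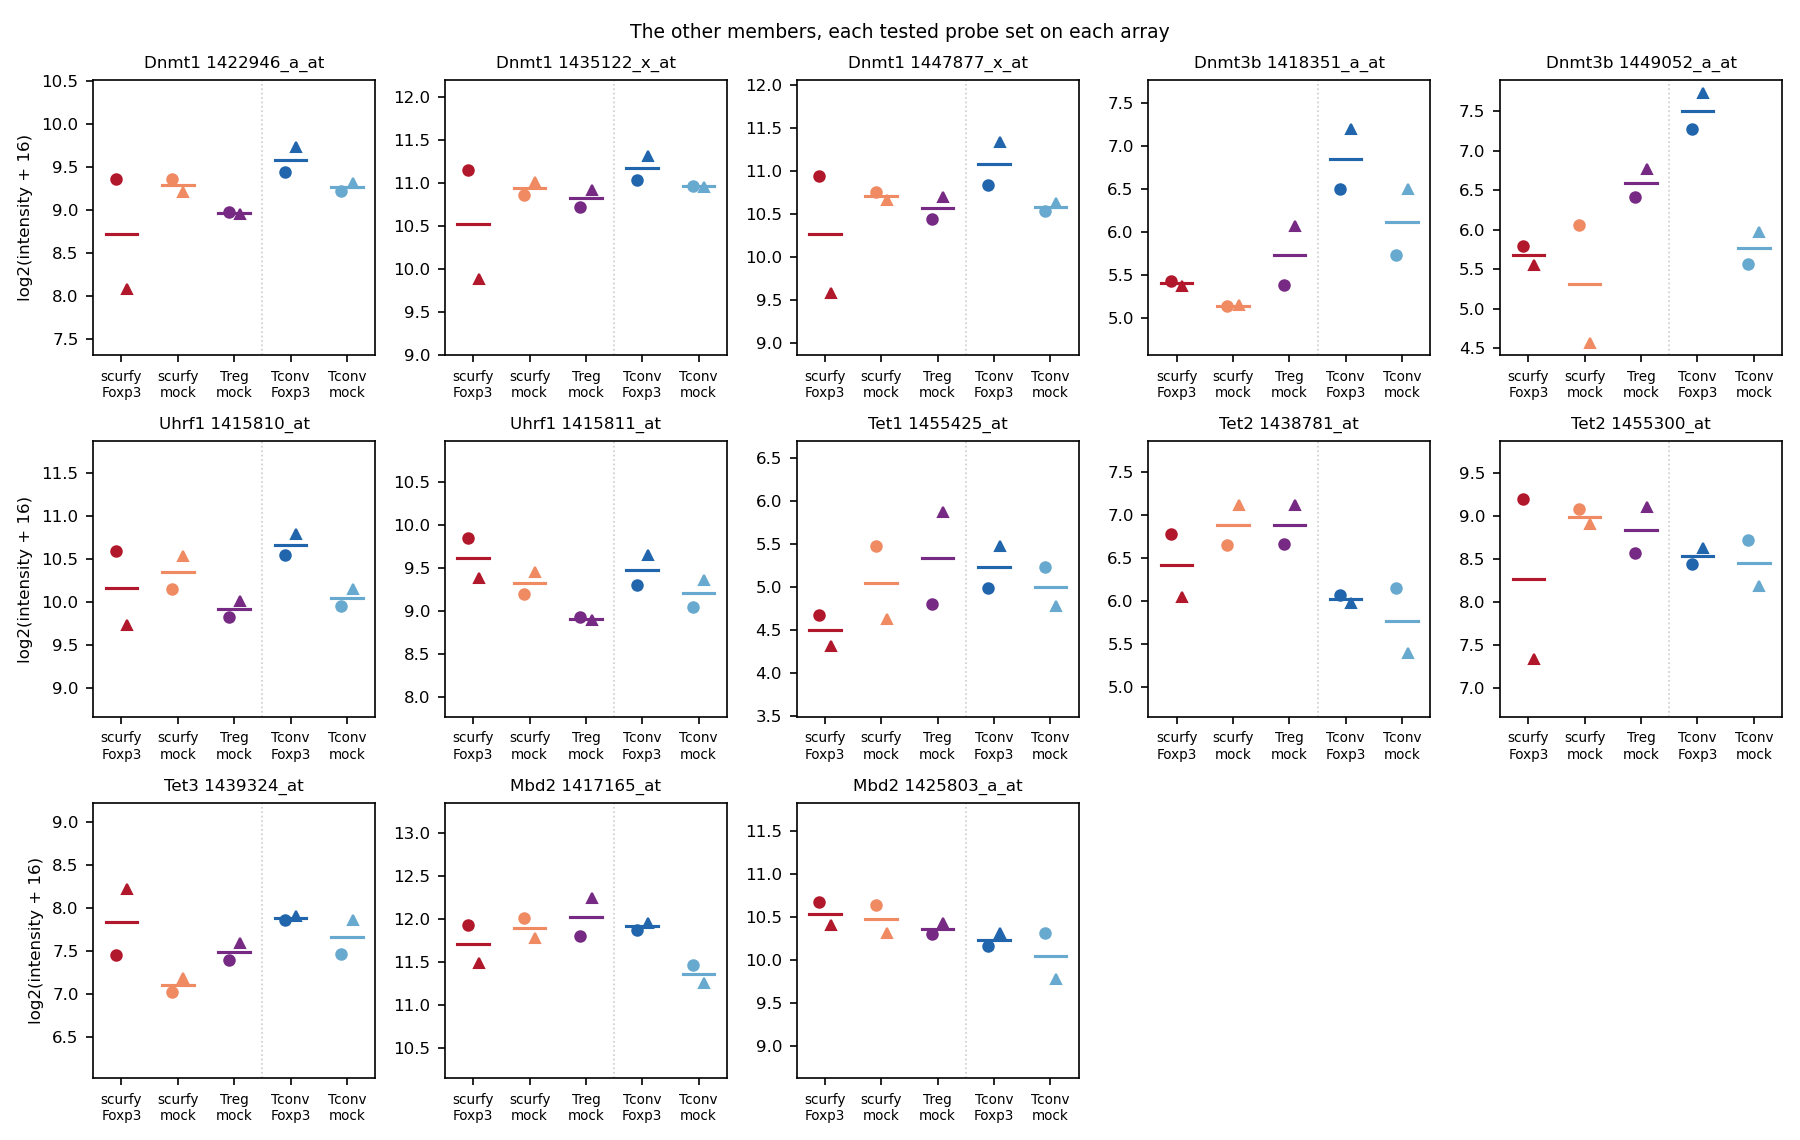
The 13 tested probe sets of the other members, as log2(intensity + 16) on the vertical axis by group, with a circle for array 1, a triangle for array 2 and a line at the mean of 2 arrays. Vertical ranges differ between panels. Scurfy Foxp3 array 2 is the lowest point in all 3 Dnmt1 panels and in Uhrf1 1415810_at, Tet1 1455425_at and Tet2 1455300_at.

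Dnmt1, the maintenance methyltransferase, was not called between any groups. Probe set 1422946_a_at read 642 and 255 on the scurfy Foxp3 arrays, 641 and 574 on the scurfy mock arrays, 489 and 480 in Treg mock, 676 and 834 in Tconv Foxp3, and 579 and 618 in Tconv mock. Probe set 1447877_x_at read 1951 and 751 on the scurfy Foxp3 arrays, 1713 and 1610 on the scurfy mock arrays, 1380 and 1650 in Treg mock, 1819 and 2561 in Tconv Foxp3, and 1464 and 1560 in Tconv mock. Probe set 1435122_x_at read 2258 and 931 on the scurfy Foxp3 arrays and from 1672 to 2522 on the other arrays. Scurfy Foxp3 array 2 was the lowest of the 10 in all 3, and Tconv Foxp3 array 2 the highest. Probe sets that end in x_at can also bind related transcripts. The adjusted p of the F test was 0.58 to 0.76. Between Treg mock and Tconv mock the differences were -0.30 for 1422946_a_at (95% interval -1.17 to 0.58), -0.14 for 1435122_x_at and -0.0018 for 1447877_x_at.

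Uhrf1, the partner that recruits Dnmt1, had no called difference either. Probe set 1415810_at read 1522 and 837 on the scurfy Foxp3 arrays, 1124 and 1464 on the scurfy mock arrays, 888 and 1020 in Treg mock, 1474 and 1758 in Tconv Foxp3, and 973 and 1120 in Tconv mock. Probe set 1415811_at read 907 and 656 on the scurfy Foxp3 arrays, 575 and 687 on the scurfy mock arrays, 472 and 462 in Treg mock, 620 and 788 in Tconv Foxp3, and 516 and 646 in Tconv mock. Scurfy Foxp3 array 2 was the lowest of the 10 in 1415810_at. Without that array the GFP+ against GFP- difference of 1415810_at went from -0.22 to -0.08. Treg mock had the lowest group mean in both. Its difference from Tconv mock was -0.13 in 1415810_at and -0.30 in 1415811_at, which is on the other side of the 0.26 median of all probe sets.

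Dnmt1 and Uhrf1 are known to be expressed most in cells that replicate their DNA, so proliferation genes were read beside them. Of 26 cell cycle genes, 25 were tested, and 0 were called in any comparison. In Tconv Foxp3 against Tconv mock all 25 were on the positive side with a median of 0.50, against 0.26 for all tested probe sets. All 18 member probe sets were positive too, with a median of 0.33, near that of all probe sets. The share of all tested probe sets with a positive difference is not given here. Of the 18, 11 were higher without overlap, as were 45.9% of all tested probe sets. Some turned negative in alternative fits, among them Tet2 1455300_at in 4 and Mbd2 1425803_a_at in 3. In GFP+ against GFP- groups 19 of the 25 were negative, with a median of -0.24 against 0.11 for all probe sets. Without scurfy Foxp3 array 2, an alternative for this list chosen after seeing the data, 17 of the 25 were negative, with a median of -0.10 against 0.18, and 0 were called. Mki67, a marker of proliferating cells, and Top2a were picked after their values were seen. Mki67 read 3587 and 640 on the scurfy Foxp3 arrays and from 2811 to 3928 on the other arrays. Top2a, the topoisomerase of dividing cells, read 2622 and 653 on the scurfy Foxp3 arrays and from 1569 to 2661 elsewhere. Scurfy Foxp3 array 2 was thus low in Mki67 and Top2a as in Dnmt1. Its mean log2 level of the cell cycle list was also the lowest, at 9.63 in a range of 9.63 to 10.6. Not every gene of the list was low there. Mcm5 and Rrm2, picked in the same way, read 3253 and 3837 on it, against 2113 and 2830 (Mcm5) and 2972 and 3229 (Rrm2) in Tconv mock. The part of proliferation in the members' values was not tested.

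The windows before annotated starts were searched on both strands for the letters TTTGGCGC, TTTCGCGC, TTTCCCGC and TTTGCCGC, which E2F factors, the regulators of replication genes, are known to bind. Of 12 windows from 7 members, 2 held a match, 1 of 3 for Dnmt1 and 1 of 2 for Uhrf1, and both were TTTCGCGC. Any of the 4 occurred in 1.86% of the 32851 windows and TTTCGCGC in 0.256%. Each of the 4 contains CG, and the matched windows held 26 (Dnmt1) and 30 (Uhrf1) CG, against a median of 6. Windows of like CG count were not compared. These windows are printed because the same letters occur in a window of both members of the maintenance pair, with the match in capitals. They come from chr9:20952624-20952873 on the minus strand and chr17:56304063-56304312 on the plus strand of GRCm38.p6, per RefSeq. Another Dnmt1 window, chr9:20952980-20953229 with 0 matches, lies upstream of the printed one. The printed Dnmt1 window thus follows that other annotated start. In Dnmt1 the match lies on the opposite strand, so it reads as its reverse complement. The match is a description of letters and was not tested for binding.
Dnmt1: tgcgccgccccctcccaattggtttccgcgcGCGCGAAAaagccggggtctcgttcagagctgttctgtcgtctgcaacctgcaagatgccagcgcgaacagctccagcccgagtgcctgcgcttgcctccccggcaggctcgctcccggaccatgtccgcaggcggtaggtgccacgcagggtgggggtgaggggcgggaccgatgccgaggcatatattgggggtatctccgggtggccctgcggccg
Uhrf1: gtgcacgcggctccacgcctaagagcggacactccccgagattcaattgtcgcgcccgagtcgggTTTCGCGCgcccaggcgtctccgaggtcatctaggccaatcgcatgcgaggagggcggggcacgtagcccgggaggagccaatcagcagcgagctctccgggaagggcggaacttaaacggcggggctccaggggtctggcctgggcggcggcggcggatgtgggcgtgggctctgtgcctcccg

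Of the demethylating enzymes, Tet2 had the largest positive difference between GFP+ and GFP- groups, without passing the test. Probe set 1438781_at read 94.3 and 50 on the scurfy Foxp3 arrays, 84.6 and 123 on the scurfy mock arrays, and 85.5 and 123 in Treg mock, against 51.0 and 47.1 in Tconv Foxp3 and 55.0 and 26.0 in Tconv mock. Apart from scurfy Foxp3 array 2, every GFP+ array was above every GFP- array. The difference was 0.83 over GFP+ against GFP- groups (SE 0.24, limma adjusted p = 0.10), 1.12 for Treg mock against Tconv mock (SE 0.38, adjusted p = 0.19) and 1.11 for scurfy mock against Tconv mock (SE 0.38, adjusted p = 0.30). With a pseudocount of 64 these were 0.52, 0.69 and 0.69 in the same order, and without Tconv mock array 2 the last 2 were 0.74 and 0.73. The brighter probe set 1455300_at read 574 and 146 on the scurfy Foxp3 arrays, 527 and 464 on the scurfy mock arrays and 366 and 537 in Treg mock, against 334 and 382 in Tconv Foxp3 and 408 and 276 in Tconv mock. Its GFP+ against GFP- difference was 0.20, and 0.51 without scurfy Foxp3 array 2, so the 2 probe sets did not match in size, and their r over 10 arrays was 0.51.

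Tet3, with a single probe set, read 159 and 281 on the scurfy Foxp3 arrays, 113 and 130 on the scurfy mock arrays, 151 and 176 in Treg mock, 216 and 223 in Tconv Foxp3, and 160 and 215 in Tconv mock. Scurfy mock was lowest and its arrays lay below all others. Scurfy Foxp3 was above scurfy mock by 0.73 (SE 0.32, adjusted p = 0.9995), by 0.35 without scurfy Foxp3 array 2 and by 1.12 without scurfy Foxp3 array 1, and no Tet3 difference was called. Scurfy Foxp3 array 2 was the highest of the 10 for Tet3, although it was the lowest for Dnmt1.

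Tet1 was near background. Its probe sets 1419896_at and 1419897_at were below the array median on all 10 arrays, and 1429448_s_at was above it on 1 array. They read 1.5 to 18.8, 2.45 to 17.0 and 0.602 to 22.1 over the arrays. Only 1455425_at was tested, with 9.59 and 3.78 on the scurfy Foxp3 arrays, 28.3 and 8.74 on the scurfy mock arrays, 11.8 and 42.5 in Treg mock, 15.7 and 28.5 in Tconv Foxp3, and 21.5 and 11.3 in Tconv mock. Its group means spanned 0.84 on the log2 scale, beside a pooled SD of 0.49 between replicates, and no Tet1 difference was called at this signal.

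Mbd2, the methyl-CG reader, was well above background, and no difference in it was called. Probe set 1417165_at read 3897 and 2864 on the scurfy Foxp3 arrays, 4127 and 3490 on the scurfy mock arrays, 3570 and 4826 in Treg mock, 3738 and 3956 in Tconv Foxp3, and 2823 and 2432 in Tconv mock. Both Tconv mock arrays were lowest. Probe set 1425803_a_at read 1618 and 1343 on the scurfy Foxp3 arrays, 1588 and 1264 on the scurfy mock arrays and 1246 and 1368 in Treg mock, against 1133 and 1257 in Tconv Foxp3 and 1260 and 867 in Tconv mock. The F test gave adjusted p of 0.56 and 0.72. Differences over GFP+ against GFP- groups were 0.24 (SE 0.19) and 0.32 (SE 0.19), and for Treg mock against Tconv mock 0.66 and 0.32, beside a median of 0.26 for all probe sets.

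Genes that work beside the members were read from a list of 30 cofactors, other readers, repair enzymes and suppliers of methyl groups, each by its brightest probe set. Of these 26 had a singly annotated probe set and 24 were tested. In GFP+ against GFP- groups 1 was called, higher, where 2.98% of all tested probe sets were called and 2.30% were called higher. In each of the other 7 comparisons 0 were called. The called gene was Zbtb4, a zinc finger protein that binds methylated CG. It read 446 and 415 on the scurfy Foxp3 arrays, 434 and 543 on the scurfy mock arrays and 370 and 777 in Treg mock, against 172 and 287 in Tconv Foxp3 and 228 and 176 in Tconv mock. The difference was 1.13 (SE 0.25, adjusted p = 0.047). It was called in 7 of 19 alternative fits, with differences between 0.96 and 1.31 and adjusted p between 0.022 and 0.20. Among fits that left out 1 array the call was kept only without Treg mock array 1 (1.31).

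Gadd45b, a stress protein linked to DNA demethylation, read 797 and 408 on the scurfy Foxp3 arrays, 273 and 823 on the scurfy mock arrays and 124 and 222 in Treg mock, against 105 and 83.3 in Tconv Foxp3 and 222 and 130 in Tconv mock. Its GFP+ against GFP- difference was 1.39 (SE 0.35, adjusted p = 0.067), and -0.03 for Treg mock against Tconv mock. Between Treg mock and Tconv mock the smallest p values of the list belonged to Zbtb4 (1.35, adjusted p = 0.14), Mat2b, a subunit of the enzyme that makes the methyl donor (0.86, adjusted p = 0.18), Gadd45a (1.30, adjusted p = 0.19) and Zbtb33, the methyl-CG binder Kaiso (0.79, adjusted p = 0.21). Over GFP+ against GFP- groups, Mat2b stood at 0.54 (adjusted p = 0.15) and Shmt2, a serine hydroxymethyltransferase of mitochondria, at -0.58 (adjusted p = 0.15). The list's median was -0.02 in Treg mock against Tconv mock, beside 0.26 for all tested probe sets, and -0.06 in GFP+ against GFP- groups, beside 0.11. Without scurfy Foxp3 array 2 the GFP+ against GFP- median turned to 0.07, beside 0.18.

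A list of 6 genes with regions demethylated in Treg was read beside the members. In GFP+ against GFP- groups 4 of 6 were called higher, namely Ikzf2, Foxp3, Ikzf4 and Ctla4, with a median of 1.96, where 2.30% of all probe sets were called higher. In scurfy Foxp3 against Tconv Foxp3 the same count was 4 of 6, with a median of 2.37, where 0.855% were called higher, and it was 3 of 6 without scurfy Foxp3 array 2. In Treg mock against Tconv mock, where 0 of 5 Dnmt3a probe sets were called, 3 of the 6 were called higher, namely Foxp3, Ikzf2 and Ikzf4, with a median of 1.57, where 0.924% were called higher. This list names genes already known from Treg, and the GFP reporter used for sorting reads Foxp3 itself.

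For each member's brightest probe set, the genes with the most similar profile over the 10 arrays were ranked by Pearson's r of quantile-normalized values, as a description over arrays that share their libraries. Dnmt3a was most like Hsd17b4 (0.96), Lcn12 (0.96) and Dus1l (0.95). Dnmt3b was nearest to Pum3 (0.94), Isg20l2 (0.93) and Usp7 (0.93), and Dnmt1 to Pnn, Sfxn2 and Zc3h13 (0.98, 0.98 and 0.97). Uhrf1 was nearest to Ska3 (0.97), Eftud2 (0.96) and Hdlbp (0.95). For Tet2 these genes were Chd2 (0.97), Ttc19 (0.96) and Srrm2 (0.96), for Tet3 Prkaca (0.95), Dtx2 (0.94) and Ydjc (0.94), for Tet1 Zmynd8 (0.96), Mkln1 (0.95) and Pank1 (0.93), and for Mbd2 Slc22a15 (0.97), Ube2d2a (0.96) and Ankrd12 (0.95). Without quantile normalization 8 of these 24 genes stayed among the first 3, namely Dus1l for Dnmt3a, Pum3 for Dnmt3b, Pnn for Dnmt1, Chd2 and Ttc19 for Tet2, Prkaca for Tet3, and Zmynd8 and Mkln1 for Tet1, and 0 of 3 did for Uhrf1 and for Mbd2.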

How the data were processed

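RNA from 10 samples was converted to biotinylated cDNA and read on the Affymetrix Mouse Genome 430 2.0 array, per the labels. The authors deposited 1 linear intensity for each probe set of an array, made with Affymetrix Expression Console per the submitters' processing notes. Neither summary method nor scaling nor build is given in the sources used here.

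Groups came from sample titles, and gene names from GEO's platform annotation. Of 45101 rows, 64 were controls (left out), 34945 had 1 symbol, 932 several and 9160 none. After log2(intensity + 16), without further normalization, the 26094 probe sets that passed the filter were fitted over all 5 groups with limma 3.58.1 in R 4.3.3 (lmFit, eBayes, two-sided), with 5 residual and 4.72 prior degrees of freedom. The fit was tested on simulated data, whose outcome is not given here and is not used to back any call. Depth has no counterpart on arrays, whose small number limits precision.

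Named genes were all member probe sets, related genes that were called or had the 4 smallest p in the Treg and GFP comparisons, called genes of the other lists, and 3 most similar genes per member. Members and lists were chosen with earlier results of these data known. Alternatives were a common 75th percentile for all arrays, quantile normalization, a pseudocount of 1 or of 64, dropping the filter or raising it to the 75th percentile, 1 probe set a gene, eBayes with trend and robust options, the replicate number as block, and omission of each array. A group left with 1 array was taken to vary like the others. Promoter windows are RefSeq's on GRCm38.p6.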

Additional observations from a re-analysis of the deposited data

How the results depend on the processing

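The direction of Dnmt3a in GFP+ against GFP- starts was the same in every alternative, and of 144 member differences 50 changed sign in at least 1 alternative, 0 of them called. Member genes with a called probe set numbered 1 in GFP+ against GFP- starts, and 2 (Dnmt3b added) after quantile normalization, at a common 75th percentile, or with trend and robust options, and 1 to 2 when arrays were left out in turn. In scurfy Foxp3 against Tconv Foxp3 the number was 1, and 0 with a pseudocount of 1 and 0 to 2 with arrays left out. In scurfy mock against Tconv mock it was 1, and 0 to 1 with arrays left out. In scurfy mock against Treg mock it was 0, and 1 at a common 75th percentile. For the F test it was 1, and 0 to 2 with arrays left out. The causes were not tested.

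Uncalled Dnmt3a differences turned sign. In scurfy Foxp3 against scurfy mock, leaving out arrays gave -0.54 to 0.70 for 1423065_at and -0.21 to 0.68 for 1423066_at. For the difference between vector effects it gave -0.034 to 0.47 for 1423063_at, -0.15 to 0.19 for 1423064_at, -1.15 to 0.091 for 1423065_at and -0.54 to 0.35 for 1423066_at, the last of which was 0.25 after quantile normalization and 0.25 at a common 75th percentile.

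All probe sets called in GFP+ against GFP- starts numbered 777, and 151 to 1293 with arrays left out and 362 to 1250 in the other alternatives. The same counts were 281, 15 to 504 and 96 to 464 for Treg mock against Tconv mock, 85, 15 to 437 and 25 to 190 for scurfy mock against Tconv mock, 300, 22 to 516 and 110 to 542 for scurfy Foxp3 against Tconv Foxp3, 52, 4 to 172 and 11 to 113 for scurfy mock against Treg mock, and 359, 91 to 910 and 98 to 745 for the F test. They were 5, 0 to 13 and 0 to 40 for Tconv Foxp3 against Tconv mock, 0, 0 to 72 and 0 to 5 for scurfy Foxp3 against scurfy mock, and 0, 0 to 6 and 0 to 0 for the difference between vector effects.

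Replicate numbers were shared between groups, but same-numbered arrays deviated together only weakly, with r from -0.14 to 0.15 over 10 pairs of groups and 2 pairs over 0.1. With the replicate block, 2 member genes were called in GFP+ against GFP- starts, since Dnmt3b 1418351_a_at passed (-1.06, limma adjusted p = 0.043). Signal near background limits Tet1 and Dnmt3b.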
